A study of Mus musculus with 6 samples.

Results

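Isg15 is a small ubiquitin-like protein that interferon induces and that is attached to other proteins by its own chain of enzymes. This set of 8 mouse genes holds the modifier Isg15, its E1 activating enzyme Uba7, its E2 conjugating enzyme Ube2l6, its E3 ligase Herc6, the protease Usp18, which removes Isg15 again, and Ifit1, Ifit2 and Ifit3 of the IFIT family. The genes were chosen by symbol, with earlier results of these data known. Every probe set annotated to one of them was taken, which gave 13 of the 45101 probe sets on the array. A probe set reads RNA through several short DNA probes, and some are annotated to more than 1 gene. Of the 13, 12 carried the symbol of 1 member only and 7 of the 8 members had such a probe set, among 18193 gene symbols that did. Isg15 itself was represented by 1 probe set that is also annotated to the pseudogene Gm9706, so its signal cannot be assigned to Isg15 alone and it was kept out of the counts.

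Type I interferon signals through its receptor to a transcription factor complex that includes Stat2 and Irf9 and binds a DNA element called the interferon-stimulated response element, or ISRE. In fibroblasts this pathway raises Isg15, its enzymes and the IFIT genes from a low resting level. IFIT proteins are built from tetratricopeptide repeats, and several of them bind foreign RNA or the translation machinery. Usp18 also acts at the interferon receptor, where it restrains signalling, so the set holds both effectors and a brake of the response.

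The cells were MEFs, fibroblasts taken from mouse embryos and then immortalized. They were PCAF-/-;GCN5-/- cells, set against PCAF-/-;GCN5+/- cells, with 3 arrays of each. The histone acetyltransferase PCAF (gene Kat2b) was therefore knocked out in all samples, and the comparison is of GCN5 (gene Kat2a), its close relative. Per the study's design, GCN5 was conditional and cells were infected with a retrovirus carrying Cre recombinase, which deletes the conditional part, or with an empty vector. GCN5-/- arrays were read as Cre and GCN5+/- arrays as vector, since no array label names the virus; the design text writes the same genotype, GCN5+/-, for both infections. The virus and the genotype thus changed together and their effects cannot be told apart. All cells had been selected with puromycin and received no further treatment. In each group, line A gave 2 RNAs (arrays A1 and A2), and line B, immortalized independently, gave array B. Only 2 lines stand behind the 6 arrays, so p-values measure in part how far repeat RNAs of a line differ, which may be technical. In bulk RNA, fewer cells expressing a gene and less RNA per cell cannot be told apart.

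The array medians lay between 7.41 and 7.46 on the log2 scale. At Kat2a, probe set 1422972_s_at read 7.97, 7.85 and 7.75 in GCN5-/- arrays A1, A2 and B, against 9.31, 10.07 and 11.51 in GCN5+/- arrays (log2 change -2.44 ± 0.36, SE; limma adjusted p = 0.00823). Probe set 1422971_at also fell (-0.75 ± 0.13; limma adjusted p = 0.0190), and 1426783_at, at 0.18 ± 0.16, was not called (limma adjusted p = 0.670). At 1426783_at the lines went opposite ways: GCN5-/- minus GCN5+/- was 0.56 for A1, 0.38 for A2 and -0.41 for B. With either line B array left out, the fitted change comes from line A alone. There 1426783_at was called higher (0.47, limma adjusted p = 0.0253 and 0.0273). The call at 1422971_at was lost without either line B array, GCN5-/- A2 or GCN5+/- A1 (adjusted p from 0.0563 to 0.101). Where these lie relative to the deleted part was not analysed here. The 3 Kat2b probe sets averaged between 4.92 and 6.78 in GCN5-/- arrays and between 4.92 and 6.59 in GCN5+/- arrays. Fibroblast markers were present in both groups. The mean log2 signal of 12 markers was 12.65 to 12.76 in GCN5-/- arrays and 12.91 to 12.97 in GCN5+/- arrays. Thy1 was an exception in line A, at 6.02 to 6.21 in the 4 arrays. Of the 12, 5 were called lower (Col1a1, Col3a1, Pdgfra, Pdgfrb and Dcn) and 0 higher, where 4.31% of all tested probe sets were called lower. Over 14 leukocyte markers the mean was 7.20 to 7.38 in GCN5-/- arrays and 7.13 to 7.17 in GCN5+/- arrays. Of these, 9 were tested and 1 rose, Cd53 (0.85 ± 0.09, limma adjusted p = 0.00167), where 8.51% of all tested probe sets were called. Cd53 (8.44 to 10.54), Csf1r (8.22 to 9.97), Cd14 (9.24 to 9.42) and Laptm5 (7.71 to 7.88) lay above the array medians in all arrays. Csf1r, at 0.36 ± 0.12, and Cd68, at 0.38 ± 0.10, were not called (limma adjusted p = 0.108 and 0.0606). The 5 markers too low to be tested included Ptprc, the common leukocyte antigen, which stayed between 4.56 and 4.75 in all arrays. Whether other cells contributed to the results below was not tested.

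All 12 single-symbol member probe sets rose in GCN5-/- arrays and 0 fell (limma adjusted p up to 0.0182), and for each the 3 GCN5-/- arrays lay above the 3 GCN5+/- arrays. For scale, 4.2% of the 27022 tested probe sets were called higher and 4.31% lower, and 8.2% had GCN5-/- arrays that all lay above the GCN5+/- arrays. Because the genes were chosen with earlier results of these data known, the shares over all tested probe sets are a description and not a test of the list. The rise was at least 2-fold (log2 change of 1 or more) at 8 of the 12, against 0.755% of all tested probe sets. The median log2 change was 1.30 over the 12 and -0.01 over all tested probe sets. Changes ran from 0.52 to 4.55. The members fell into a group with changes above 3 on the log2 scale (Usp18, Ifit1, Ifit3 and the shared Isg15 probe set) and a group at 1.57 or below (Uba7, Ube2l6, Herc6 and Ifit2). The level filter asked for a mean log2 signal of 6.80 over all arrays. Ube2l6 passed it only through its GCN5-/- arrays, since its GCN5+/- arrays all lay below that level. It therefore had to differ, and its call adds nothing to the count. The same holds for Herc6 probe set 1453757_at, which averaged 6.56 in GCN5+/- arrays, below that level, and 7.98 in GCN5-/- arrays. Its call and its place among the rises of at least 2-fold add nothing to those counts. Without a line term in the fit, 3 of the 12 were called.

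**Figure D1:**
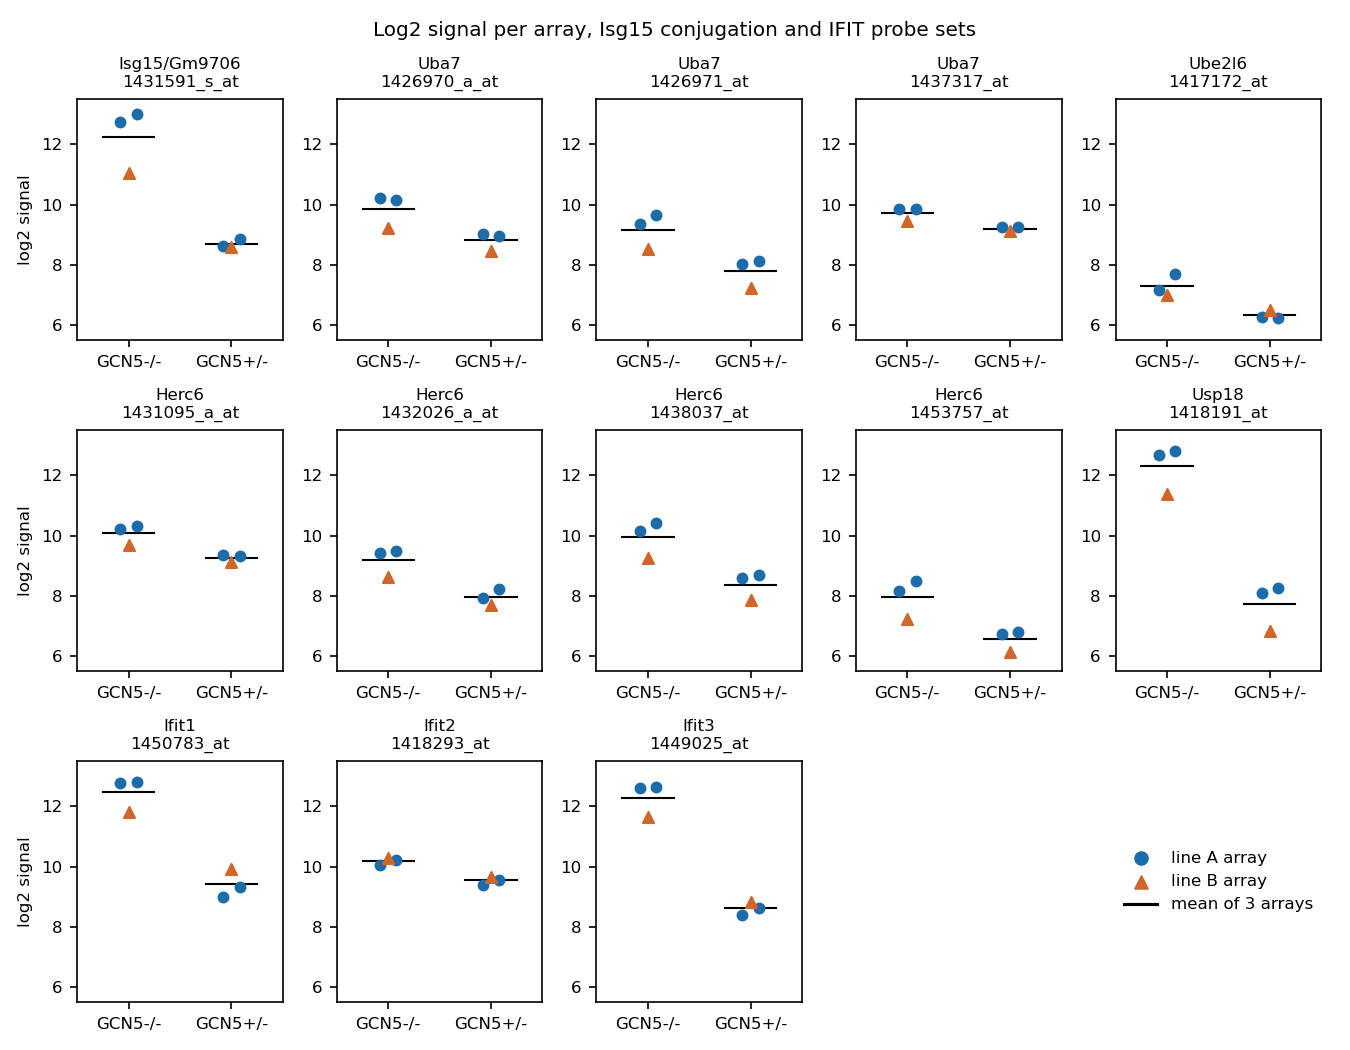
Log2 signal (y axis) of the 13 member probe sets in GCN5-/- arrays (left in each panel) and GCN5+/- arrays (right), with line A as circles, line B as triangles and bars at the mean of 3 arrays. In every panel the 3 GCN5-/- points lie above the 3 GCN5+/- points, and the gap is widest for Usp18.

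Promoter sequences are shown for Isg15, Ifit1 and Ifit3 because these were the windows of member genes that held the ISRE core. The windows are from RefSeq (GRCm38.p6) and span 250 bases before to 50 bases after a gene start. A window was available for 7 of the 8 members. None was available for Usp18, which had the largest change of the set (4.55), so its promoter was not searched. The ISRE core was searched as GAAANNGAAA on both strands, so it reads TTTCNNTTTC on the other strand. It is marked in capitals in the stretches below, which run 5′ to 3′ along the gene's own strand and end at the base before the gene start.
Isg15, chr4:156200819-156200988, minus strand: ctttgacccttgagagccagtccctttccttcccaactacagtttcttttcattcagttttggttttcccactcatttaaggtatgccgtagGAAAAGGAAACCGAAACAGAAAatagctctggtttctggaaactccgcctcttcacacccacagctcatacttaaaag
Ifit1, chr19:34640749-34640888, plus strand: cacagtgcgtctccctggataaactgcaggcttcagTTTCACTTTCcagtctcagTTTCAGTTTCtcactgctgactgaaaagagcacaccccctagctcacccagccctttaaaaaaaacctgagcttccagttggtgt
Ifit3, chr19:34583359-34583528, plus strand: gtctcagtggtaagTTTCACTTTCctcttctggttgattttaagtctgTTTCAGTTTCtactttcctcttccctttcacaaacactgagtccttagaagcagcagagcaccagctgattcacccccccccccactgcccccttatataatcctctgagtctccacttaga

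Isg15 held 3 overlapping copies of the core, between positions -78 and -57 from the start. Ifit1 held 2 separate copies, beginning at -104 and -85, and Ifit3 held 2, beginning at -156 and -122. The 2 copies in Ifit1 and the 2 in Ifit3 had the same letters, TTTCACTTTC and then TTTCAGTTTC. Over all 27025 genes with a window, 3.99% held the core at least once and 0.266% held it 2 or more times in a window. The windows of Uba7, Ube2l6, Herc6 and the 2 starts of Ifit2 did not contain these letters. The GAS core, TTCNNNGAA, the letters of the gamma interferon activated site, occurred in 1 member window, at Ifit2 from -241, and in 9.55% of genes. Such a match describes the letters of the window and not binding.

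**Figure D2:**
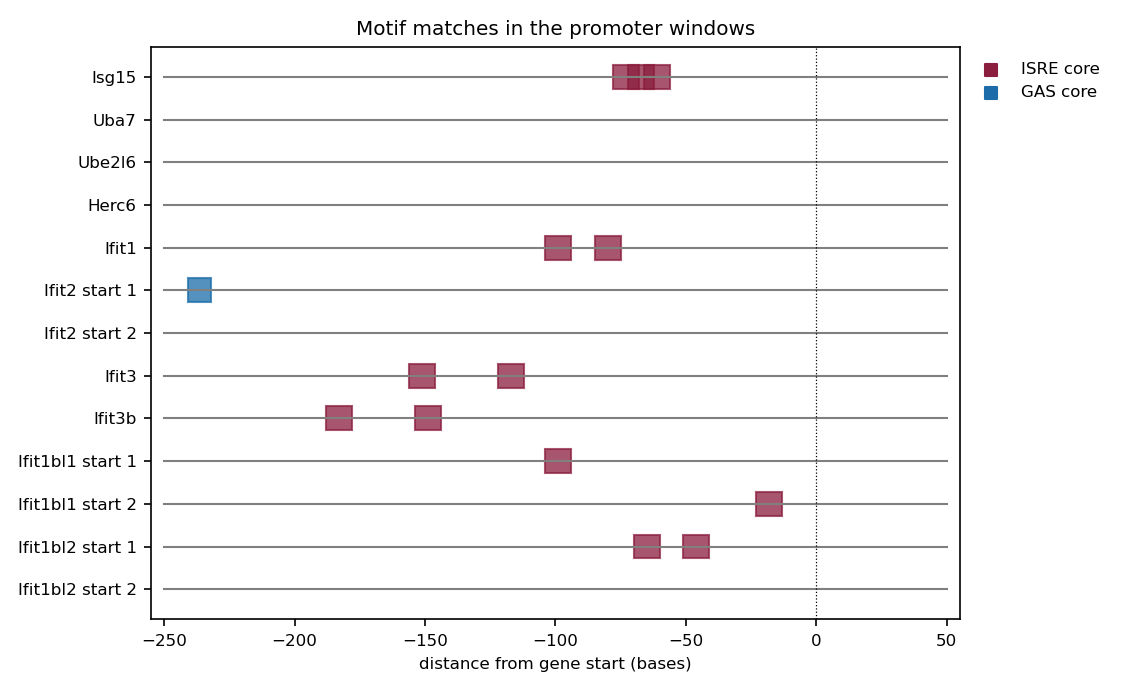
Matches to the ISRE core and the GAS core in the promoter windows of member genes and IFIT relatives, as distance from the gene start in bases (x axis, 0 marks the start); genes with several starts have a line for each. Isg15, Ifit1 and Ifit3 carry ISRE cores between -156 and -57, and the Uba7, Ube2l6 and Herc6 windows carry neither motif.

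The Isg15 modifier was read through probe set 1431591_s_at, shared with Gm9706. Its log2 signal was 12.73, 13.00 and 11.03 in GCN5-/- arrays A1, A2 and B, against 8.62, 8.87 and 8.60 in GCN5+/- arrays. The GCN5+/- arrays were nearly level across the lines, and the line B array was the lowest of the GCN5-/- arrays by over 1 log2 unit. The fitted change was 3.56 ± 0.30 (SE; limma adjusted p = 0.00061), an 11.8-fold rise. A second probe set, 1453939_x_at, is annotated to Gm9706 alone, and the annotation table pairs both probe sets with the same accession. It read 8.93, 9.52 and 8.04 in GCN5-/- arrays, against 7.02, 7.22 and 7.51 in GCN5+/- arrays (1.58 ± 0.30, limma adjusted p = 0.0197). Both probe sets were therefore higher in all 3 GCN5-/- arrays, and how much of either signal comes from the gene or the pseudogene was not tested.

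Uba7 activates Isg15 in the first step of conjugation. Its 3 probe sets rose by different amounts. At 1426971_at the log2 signal was 9.36, 9.65 and 8.51 in GCN5-/- arrays A1, A2 and B, against 8.04, 8.13 and 7.24 in GCN5+/- arrays (1.37 ± 0.11, SE; limma adjusted p = 0.000496). At 1426970_a_at it was 10.20, 10.14 and 9.21, against 9.04, 8.94 and 8.48 in GCN5+/- arrays (1.03 ± 0.12, limma adjusted p = 0.00234). In both cases the groups did not overlap, and line B lay below line A within each genotype. The third probe set, 1437317_at, showed the smallest change of all members, 0.52 ± 0.10 (limma adjusted p = 0.0182). It read 9.86, 9.86 and 9.45 in GCN5-/- arrays, against 9.26, 9.25 and 9.11 in GCN5+/- arrays. Its call was lost when any 1 of the 4 line A arrays was left out (adjusted p between 0.0614 and 0.0940) and with the duplicates averaged (adjusted p = 0.0976).

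Ube2l6 receives activated Isg15 from Uba7 and serves as its E2. Its log2 signal was 7.17, 7.69 and 7.01 in GCN5-/- arrays A1, A2 and B, against 6.27, 6.24 and 6.52 in GCN5+/- arrays. The groups did not overlap, although A2 stood well above A1 among the GCN5-/- arrays. The change was 0.95 ± 0.18 (SE; limma adjusted p = 0.0174). It was no longer called without GCN5+/- A1 (adjusted p = 0.0841), without GCN5+/- A2 (adjusted p = 0.0619) or with averaged duplicates (adjusted p = 0.0584).

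Herc6 is the main Isg15 ligase of the mouse; human cells use HERC5. Its 4 probe sets rose by 0.81 ± 0.10, 1.22 ± 0.13, 1.41 ± 0.13 and 1.57 ± 0.11 (log2, SE; limma adjusted p up to 0.00459). The last of these, 1438037_at, read 10.15, 10.43 and 9.25 in GCN5-/- arrays A1, A2 and B, against 8.60, 8.68 and 7.85 in GCN5+/- arrays. The weakest, 1431095_a_at, read 10.22, 10.30 and 9.69, against 9.34, 9.33 and 9.11 in GCN5+/- arrays. All 4 probe sets agreed in direction in each matched pair, and line B was the lowest array of each genotype at all of them.

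Usp18 is the protease that strips Isg15 from its targets. It had the smallest p-value of all 27022 tested probe sets and the third largest rise. Its log2 signal was 12.67, 12.81 and 11.39 in GCN5-/- arrays A1, A2 and B, against 8.09, 8.28 and 6.84 in GCN5+/- arrays. Line B was lower than line A by the same step in both genotypes, so the matched differences were 4.57, 4.53 and 4.55. The fitted change was 4.55 ± 0.09 (SE; limma adjusted p = 8.05e-07), or 23.4-fold.

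Ifit1, which binds RNA whose cap lacks the methylation of host messages, had a log2 signal of 12.76, 12.81 and 11.80 in GCN5-/- arrays A1, A2 and B, against 8.99, 9.32 and 9.92 in GCN5+/- arrays. It rose by 3.05 ± 0.31 (SE; limma adjusted p = 0.00136). Line B was the lowest GCN5-/- array and the highest GCN5+/- array, so its difference was 1.89, beside 3.77 in pair A1 and 3.49 in pair A2. Ifit3, which in human cells partners and stabilises IFIT1, read 12.59, 12.63 and 11.63 in GCN5-/- arrays, against 8.39, 8.64 and 8.83 in GCN5+/- arrays. It showed the same layout as Ifit1 and rose by 3.66 ± 0.23 (limma adjusted p = 0.000179).

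Ifit2, an IFIT protein that restricts several viruses in mouse tissues, changed far less. It read 10.05, 10.21 and 10.29 in GCN5-/- arrays A1, A2 and B, against 9.40, 9.57 and 9.66 in GCN5+/- arrays. The groups did not overlap and the 3 matched differences were 0.65, 0.64 and 0.63. The change was 0.64 ± 0.10 (SE; limma adjusted p = 0.00844), a 1.56-fold rise beside the 8.27-fold rise of Ifit1 and the 12.7-fold rise of Ifit3. Its adjusted p was 0.0521 without GCN5-/- A2. The 3 genes lie in 1 cluster on chromosome 19 in the order Ifit2, Ifit3, Ifit1bl1, Ifit3b, Ifit1bl2, Ifit1. The difference in response between family members was not tested, since each gene was read by its own probe set.

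The IFIT relatives in that cluster were measured in part. Ifit1bl1, of which Ifit1c is an older name, read 8.11, 7.86 and 7.48 in GCN5-/- arrays A1, A2 and B, against 7.16, 7.09 and 6.45 in GCN5+/- arrays, and rose by 0.92 ± 0.10 (SE; limma adjusted p = 0.00246). Ifit1bl2 lay below the level filter at both of its probe sets; in the fit over all probe sets its changes were 0.42 ± 0.10 and 0.45 ± 0.11 (limma adjusted p = 0.0576 and 0.0572). No probe set was annotated to Ifit3b here. The windows at starts 1 and 2 of Ifit1bl1 each held 1 ISRE core, beginning at -104 and -23, beside its rise of 0.92. The promoter windows of Ifit3 and Ifit3b shared an unbroken identical stretch of 169 bases (GRCm38.p6). The windows of Ifit1 and Ifit1bl2, which point away from each other, overlap by 245 bases and hold the same 2 cores.

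**Figure D3:**
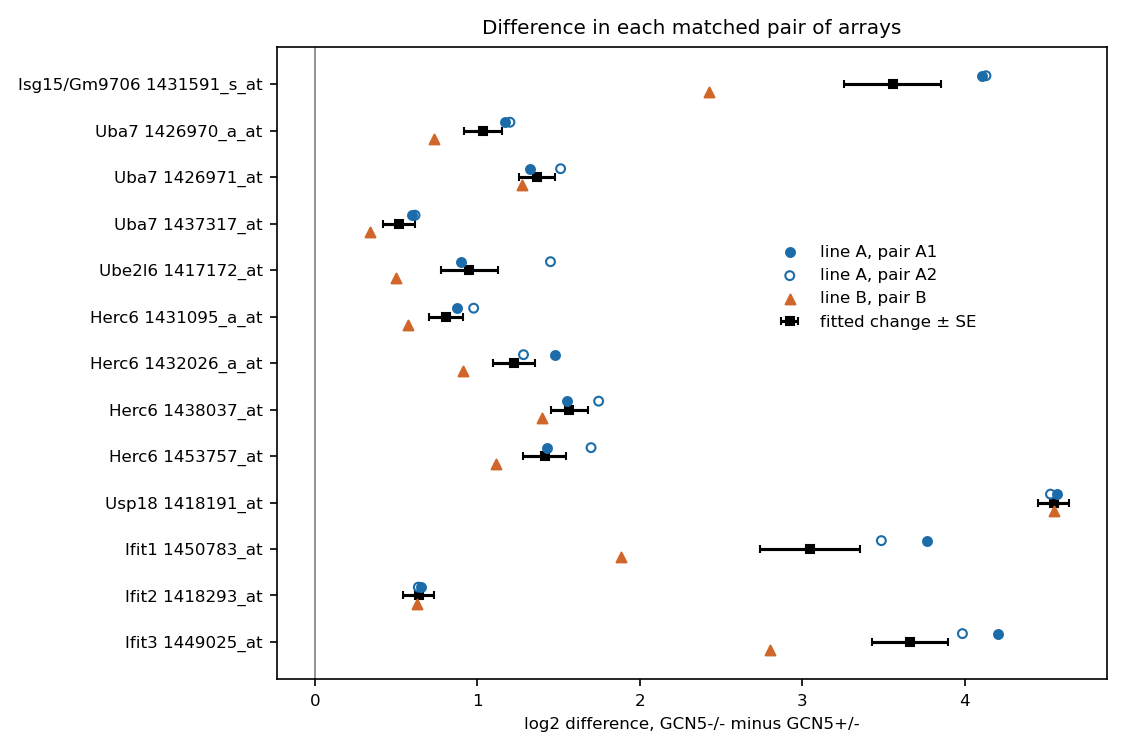
Log2 difference, GCN5-/- minus GCN5+/- (x axis), for each member probe set in pair A1 (filled circle), pair A2 (open circle) and pair B (triangle), with the fitted change and its SE in black. All 39 differences lie above 0, and pair B falls short of the line A pairs most at Ifit1, the shared Isg15 probe set and Ifit3.

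The rise in each line was set side by side, and a difference between lines did not pass the test at any member. At the shared Isg15 probe set the difference was 2.43 in pair B, beside 4.11 in pair A1 and 4.13 in pair A2. At Ifit3 it was 4.20 and 3.99 in line A and 2.80 in line B. At all 12 single-symbol probe sets the pair B difference lay below the line A mean, but by 0.00 at Usp18 and 0.02 at Ifit2. In the fit with a genotype by line term, the effect in line B minus that in line A was -1.74 ± 0.21 (SE) at Ifit1 (limma adjusted p = 0.0706), -1.69 ± 0.24 at the shared Isg15 probe set (adjusted p = 0.0849) and -1.30 ± 0.20 at Ifit3 (adjusted p = 0.111). None of these passed the threshold. Of the 12 single-symbol probe sets, 0 were called by limma and 2 had an unadjusted p under 0.05, where 0.0481% of all tested probe sets were called and 0.0259% were called with the smaller change in line B. Ifit1 and the shared Isg15 probe set were called when any 1 of the 4 line A arrays was left out, and Ifit3 without GCN5+/- A1 or GCN5+/- A2. The calls over all tested probe sets, 13 with every array, numbered 104 without GCN5+/- A1, 55 without GCN5+/- A2, 98 without GCN5-/- A1 and 100 without GCN5-/- A2. They numbered 4 after quantile normalization and 0 without the variance trend, where no member was called. For Usp18 the interval of the difference between lines was -0.49 to 0.48 (95%, unadjusted), and for Ifit2 it was -0.52 to 0.48. The residual spread of this fit comes only from the line A duplicates. Within line A alone, all 12 rose (limma adjusted p up to 0.0202), where 4.2% of tested probe sets were called higher. Ube2l6 and Herc6 probe set 1453757_at averaged below the level filter in GCN5+/- arrays, so their calls add nothing to this count either. At Kat2a, the differences at 1422972_s_at were -3.76 in pair B, beside -1.35 (A1) and -2.22 (A2). The effect in line B minus that in line A was -1.98 ± 0.40 and was not called (limma adjusted p = 0.193). The part of Kat2a in the members' values was not tested.

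Between the lines at matched genotype, 7 of the 12 probe sets were lower in line B and 0 higher, where 11.5% of tested probe sets were called lower and 11.6% higher, 23.1% in all. Usp18 was lower in line B by 1.34 log2 units (line B minus line A -1.34 ± 0.10, SE; limma adjusted p = 7.17e-05). All 4 Herc6 probe sets and 2 of the 3 Uba7 probe sets were the others. The order of levels was therefore GCN5-/- line A, GCN5-/- line B, GCN5+/- line A, GCN5+/- line B for Usp18, and likewise at every Herc6 and Uba7 probe set. Each line B level is 1 array and has no spread of its own. For Ifit1 and Ifit3 the lowest level was in GCN5+/- line A and not in GCN5+/- line B. For Ifit2 both lines were level within each genotype (line B minus line A 0.17 ± 0.10, limma adjusted p = 0.280).

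Of 10 genes that signal to the set, 8 were tested, 3 rose and 0 fell, with a median log2 change of -0.01, the same as over all tested probe sets; 8.51% of all tested probe sets were called in either direction. Irf9, the DNA-binding subunit of the complex that recognises the ISRE, rose by 2.14 ± 0.11 (SE; limma adjusted p = 6.77e-05). Its partner Stat2 rose by 1.95 ± 0.14 (limma adjusted p = 0.000351). Irf7, which amplifies interferon production, rose by 2.52 ± 0.22 (limma adjusted p = 0.000734), and read 10.05, 10.58 and 9.17 in GCN5-/- arrays A1, A2 and B, against 7.43, 7.47 and 7.34 in GCN5+/- arrays. The log2 changes of the others were -0.37 ± 0.13 for the receptor chain Ifnar1 and -0.19 ± 0.10 for Ifnar2. They were -0.03 ± 0.06 for the kinase Jak1, 0.01 ± 0.10 for Tyk2 and -0.13 ± 0.10 for Irf3; none of the 5 was called (adjusted p from 0.127 to 0.962). The interferon gene Ifnb1 lay below the filter, between 6.33 and 6.35 in GCN5-/- arrays and between 6.14 and 6.36 in GCN5+/- arrays.

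Other enzymes reported to act with Isg15 had 1 higher and 0 lower of 9 tested, with a median of -0.02. With 8.51% of all tested probe sets called in either direction, that count is near the share over the array. The gene that rose was Trim25, a ubiquitin ligase of the RNA sensing pathway that can also carry Isg15 (1.10 ± 0.13, SE; limma adjusted p = 0.00298). Its probe set 1419879_s_at read 11.95, 12.08 and 7.15 in GCN5-/- arrays A1, A2 and B, against 10.67, 10.78 and 6.43 in GCN5+/- arrays. The groups overlapped because both line B arrays were far below line A. The ligase Arih1, the E2 enzymes Ube2e1 and Ube2e2, and the proteases Usp2, Usp5, Usp13, Usp14 and Usp16 were not called, with changes from -0.13 to 0.12.

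Relatives of the conjugation enzymes that serve ubiquitin, Nedd8, Sumo or autophagy had 0 of 9 tested called by limma (median -0.01). Of these, 4 had an unadjusted p under 0.05. Where 8.51% of all tested probe sets were called, a list this small can hold 0 calls without differing from the array. The E1 enzyme Uba6 was at -0.01 ± 0.07 (SE), with a 95% interval from -0.17 to 0.14. The E1 subunits Uba3, at 0.20 ± 0.07, and Nae1, at -0.23 ± 0.07, were not called (adjusted p = 0.123 and 0.0691). The Herc family members Herc1 to Herc4 lay between -0.32 and 0.18 and were not called, beside the rise of Herc6. Other ubiquitin-like modifiers also had 0 of 7 called (median 0.06, 0 with an unadjusted p under 0.05), with Nedd8 at 0.06 ± 0.05. Ubd, the interferon gamma inducible modifier also known as Fat10, lay below the filter at 5.49 to 5.62 in GCN5-/- arrays and 5.40 to 5.63 in GCN5+/- arrays.

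**Figure D4:**
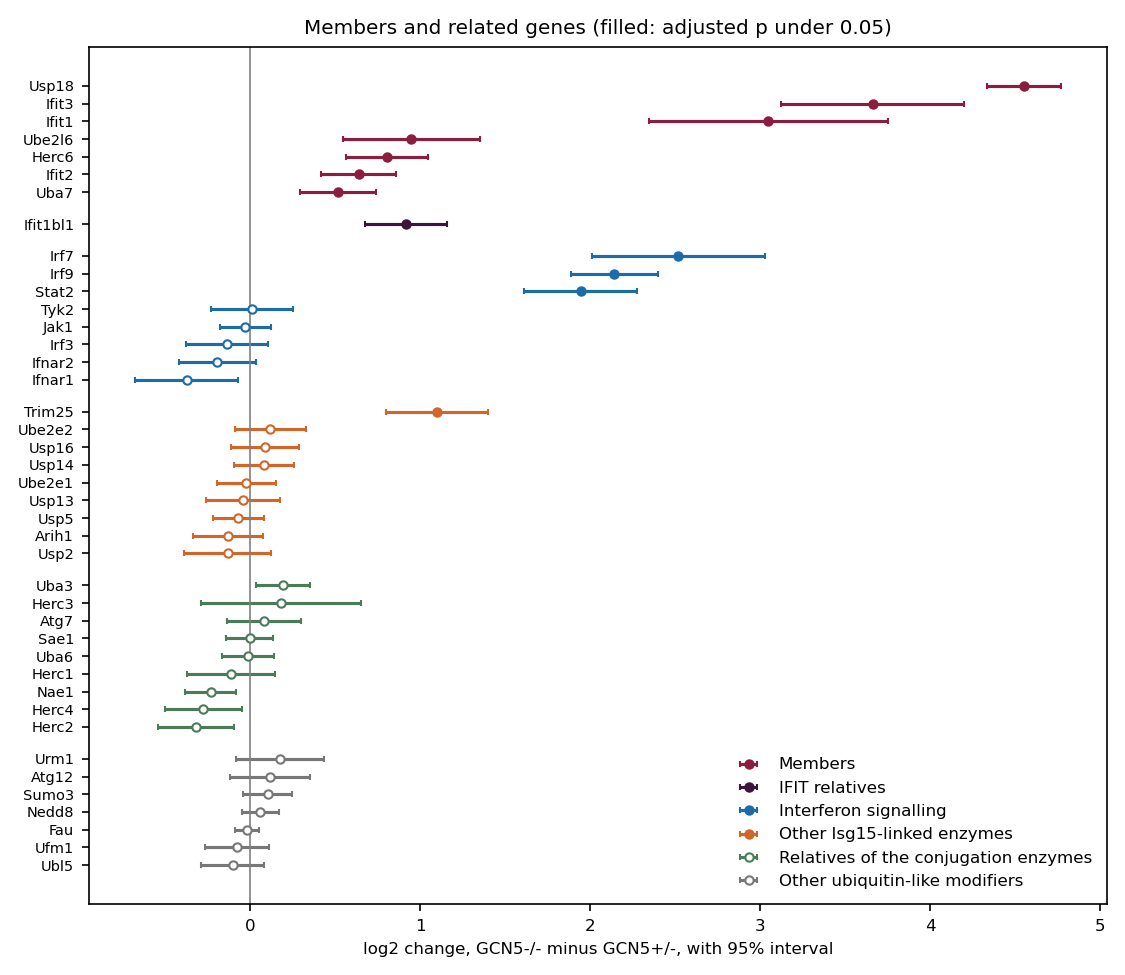
Fitted log2 change, GCN5-/- minus GCN5+/- (x axis), with 95% intervals for the 7 members with their own probe set and for related genes, each through its probe set with the highest mean signal. Filled points are called (adjusted p under 0.05): the 7 members, Ifit1bl1, Irf7, Irf9, Stat2 and Trim25 are filled, and the relatives of the conjugation enzymes and other modifiers lie between -0.32 and 0.20.

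The genes whose profile over the 6 arrays lay nearest to each member were found by the root mean square distance between log2 signals, each centred on its own mean. Uba7 and Herc6 entered through their brightest probe sets, 1437317_at and 1431095_a_at, which had their smallest changes. Nearest to Usp18 was Oasl2, of the oligoadenylate synthetase family, at 0.35 log2 units, with a rise of 4.59 ± 0.28 (SE). The shared Isg15 probe set was nearest to Rsad2, which encodes the antiviral enzyme viperin (0.15 away, rise 3.56 ± 0.32). Ifit3 was nearest to Rtp4 (0.34 away, rise 3.41 ± 0.16), and Rtp4 came next for Usp18 and the Isg15 probe set. Ifit1 was nearest to H2-K1, a class I antigen-presenting chain (0.33 away), and to the chemokine Cxcl10 (0.35 away). Herc6 was nearest to Ddx58, the RNA sensor RIG-I (0.08 away, rise 0.93 ± 0.09). Nearest to Ube2l6 was Pnpla7 (0.12 away), to Ifit2 Qtrt2 (0.04 away) and to Uba7 Gm41724 (0.04 away). Small changes lie near each other on this measure whatever their gene, and the profiles share the 6 arrays, so these distances are a description. Between members, the shared Isg15 probe set and Ifit3 were 0.33 apart and Ifit1 and Ifit3 0.34, while Usp18 and Ifit2 were 2.08 apart.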

How the data were processed

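The authors deposited 1 table of log2 signal for 6 arrays; that the scale is log2 follows from its range. MAS5 appears for all 6 samples and Partek for 1 in the submitters' processing notes, without a role. The sources used here do not give the normalization, background correction or filters. A scaling step between arrays, if made, would hide shifts common to most genes.

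Control probe sets (64) were left out of 45101. Symbols came from the platform annotation, updated through 34741 Entrez identifiers matched to RefSeq (GRCm38.p6, used for names). Of the rest, 34945 had 1 symbol, 932 several and 9160 none here.

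The test was limma 3.58.1 in R 4.3.3 (lmFit, eBayes with trend) with genotype and cell line, on 27022 probe sets at or above the 40th percentile of mean signal (6.80), with Benjamini-Hochberg adjustment over all of them and a threshold of 0.05. The number of arrays limits the precision. Kat2a, Kat2b and probe sets under the filter came from a fit over all 45037. The script was tested on simulated data. The genes named are the 8 members, Kat2a, Kat2b, called or needed genes of the related lists and the nearest profiles. Members and lists were chosen with earlier results of these data known. Relatives were read through their brightest probe set.

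A and B name the same lines in both groups, which pairs arrays by line. Deviations from group means correlated at 0.714 (A1), 0.727 (A2) and 0.846 (B), and at 0.443 and 0.509 with A1 and A2 crossed. Duplicate arrays shared 61 and 62 identical values, so none was a copy.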

Additional observations from a re-analysis of the deposited data

How the results depend on the processing

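All 12 single-symbol probe sets kept a rise under every alternative that tested them. The direction could hardly change, since all GCN5-/- arrays lay above all GCN5+/- arrays at each of them. The filter, the variance trend and the handling of line left the fitted change as it was, so those alternatives bear on the calls only. The calls of Ube2l6 and Herc6 probe set 1453757_at add nothing to the counts below, for the reason given above. Recomputed, 147 values stayed on the same side of the threshold and 19 lost the call. Without a line term, 3 of 12 were called (Usp18, Ifit1 and Ifit3, each at an adjusted p of 0.0489), beside 2 calls among related genes (5 with the line term) and 69 over all probe sets (2299 with it). Both Kat2a calls were lost there (adjusted p = 0.214 and 0.302), with line as a random block (0.0877 and 0.131) and with averaged duplicates (0.0519 and 0.0828). With line as a random block 11 of 12 and 532 probe sets in all were called, and with averaged line A duplicates 10 of 12 and 709. Leaving out 1 array gave 10 to 12 member calls and 645 to 2309 in all: 645 without GCN5-/- A2, 1161 without GCN5-/- A1, 703 without GCN5+/- A1 and 1109 without GCN5+/- A2. With the replicate block 12 of 12 and 2627 in all were called, and no member call changed. The genotype by line count for members was 0, was 1 with no filter (Ifit1), and 1 to 2 without 1 line A array (Ifit1, and Ifit3 without GCN5+/- A1 or A2), where calls over all probe sets were 55 to 104, against 13. The count that differed between lines was 7, and 4 to 9 without 1 array (4 without GCN5-/- B). A 60th percentile filter left 10 member probe sets, all called, without Ube2l6 and 1 of Herc6. Quantile normalization, no trend and no filter called 12 of 12. The cause of these losses was not tested.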

Other observations

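Trim25 was the one related gene whose level differed between the lines by more than any member did. All 3 of its probe sets were low in line B in both genotypes. At 1425974_a_at the log2 signal was 11.80, 11.98 and 6.77 in GCN5-/- arrays A1, A2 and B, against 10.55, 10.68 and 6.19 in GCN5+/- arrays. At 1426415_a_at it was 9.51, 9.54 and 7.17 in GCN5-/- arrays, against 8.19, 8.41 and 7.04 in GCN5+/- arrays. For 1419879_s_at the line difference, line B minus line A, was -4.58 ± 0.14 (SE; limma adjusted p = 7.52e-07), beside -1.34 ± 0.10 for Usp18. At 1426415_a_at the matched difference was 0.13 in pair B, beside 1.31 (A1) and 1.13 (A2). Its line B arrays (7.17 and 7.04) lay close to the filter level of 6.80. The GCN5+/- line B arrays of the other Trim25 probe sets (6.43 and 6.19) lay below it. Whether a difference can be read in full at such low signal was not tested.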
